A study of Mus musculus with 7 samples.

Results

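The major histocompatibility complex (MHC) class I and peptide-loading genes H2-D1, H2-K1, B2m, H2-Q10, H2-Q7, H2-T23, Tap1 and Tapbp were followed in mouse neutrophils from healthy tissues and inflamed sites. These 8 genes were taken by name. They were among the 6677 gene symbols listed in all 7 count tables, out of 28719 symbols listed in any of them. In the healthy tables, the cells kept were those with at least 3% of their unique molecular identifiers (UMIs, 1 per captured RNA molecule) from S100a8 plus S100a9, a pair of calcium-binding protein genes that neutrophils transcribe heavily. This left 12755 of 16907 cells. In the inflammation table, the 4852 of 4856 cells whose deposited annotation was a granulocyte type were kept. All 15 neutrophil marker genes had UMIs in every library and condition.

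The study sorted CD11b+ Ly6G+ cells that excluded propidium iodide and profiled them by droplet single-cell RNA sequencing of transcript 3′ ends. All mice were male C57BL/6J, and every library or condition was a pool of 3 mice. Peripheral blood, bone marrow and spleen were taken from the same untreated mice in 2 runs, at 6 weeks of age in run 1 and 8 weeks in run 2, so age and run cannot be told apart. The libraries of these 2 runs used 3′ v2 chemistry, and a single further library used v3. That library held 5 conditions, tagged with hashtag antibodies. They were healthy blood, blood and joint lavage on day 7 after K/BxN serum was given on days 0 and 2 (a transferred arthritis), and bronchoalveolar or peritoneal lavage 3 h after 25 ng of IL-1β was given into the nose or the peritoneum. Mice were 8 weeks old at the IL-1β or first serum dose, so arthritic mice were older at sampling, and the age of the healthy mice of this library is not given in the sources used here.

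Libraries differed in depth and make-up. The 6 healthy libraries held 1135 to 3672 neutrophils each and 1360064 to 9104133 UMIs, with a median of 775 to 2698.5 UMIs per cell. The conditions held 292 to 2857 cells and 942688 to 10293966 UMIs. Any pair of tables shared 0 to 36 cell barcodes, at most 0.942% of the smaller table. The run 2 blood library stood apart, with 30411 CPM (UMIs per 1000000 UMIs of the same cells) summed over 9 red cell genes, against 255 CPM in the lowest healthy library. B cell markers summed to between 4.47 and 970 CPM, highest in spleen of run 2. In summed counts alone, fewer expressing cells and less RNA per cell cannot be told apart. With all UMIs of a cell used, H2-D1 was found in 89.3% and 94.0% of blood and 90.3% and 92.1% of marrow neutrophils. For H2-Q10 these shares were 47.9% and 50.8% in blood and 20.1% and 21.8% in marrow. With cells thinned to 500 UMIs, H2-D1 was found in 78.1% and 84.4% in blood and 44.0% and 54.1% in marrow. For H2-Q10 the thinned shares were 35.4% and 35.5% in blood and 6.55% and 8.84% in marrow.

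As background, class I molecules show peptides from inside a cell to CD8 T cells and to receptors on natural killer cells. A heavy chain pairs with β2-microglobulin, and the peptide, cut by the proteasome, enters the endoplasmic reticulum through the TAP transporter and is fitted to the heavy chain with the help of tapasin. Interferons raise transcription of most genes of the pathway through IRF, STAT and NF-κB family factors, with NLRC5 as the class I transactivator.

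H2-K1 and H2-D1 encode the classical heavy chains K and D. All of the genes but B2m lie on chromosome 17 of GRCm38, among them H2-K1 at chr17:33996017-34000347 on the minus strand and H2-D1 at chr17:35262730-35267499 on the plus strand. H2-Q10, at chr17:35470089-35474563 on the plus strand, encodes a secreted nonclassical chain best known from liver. B2m, for β2-microglobulin, lies on chromosome 2 at chr2:122147686-122153083 on the plus strand.

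The 250 bases before the transcription start that RefSeq lists (GRCm38.p6) are shown for both classical heavy chains and for H2-Q10, because H2-Q10 had the widest difference between blood and marrow of the 8 genes and both classical genes are its abundant relatives. Capitals mark an interferon response type motif, AANNGAAAC on either strand, and an NF-κB type motif, GGG followed by any 2 bases and TTCCC, on either strand. The 2 strings do not overlap in these windows. The windows are chr17:35262844-35263093 (plus strand, inside the longer GENCODE span of H2-D1), chr17:34000348-34000597 (minus strand, directly upstream of H2-K1) and chr17:35469839-35470088 (plus strand, directly upstream of H2-Q10).
H2-D1: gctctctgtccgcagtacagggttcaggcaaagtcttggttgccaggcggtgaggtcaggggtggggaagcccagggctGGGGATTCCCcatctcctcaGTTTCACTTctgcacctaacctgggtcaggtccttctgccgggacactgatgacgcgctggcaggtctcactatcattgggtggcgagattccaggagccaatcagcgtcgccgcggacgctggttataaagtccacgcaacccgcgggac
H2-K1: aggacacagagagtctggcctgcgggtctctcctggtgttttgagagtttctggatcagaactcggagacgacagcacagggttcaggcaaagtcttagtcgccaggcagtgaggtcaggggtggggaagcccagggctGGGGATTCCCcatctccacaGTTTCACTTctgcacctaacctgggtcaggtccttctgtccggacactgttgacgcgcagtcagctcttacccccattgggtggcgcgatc
H2-Q10: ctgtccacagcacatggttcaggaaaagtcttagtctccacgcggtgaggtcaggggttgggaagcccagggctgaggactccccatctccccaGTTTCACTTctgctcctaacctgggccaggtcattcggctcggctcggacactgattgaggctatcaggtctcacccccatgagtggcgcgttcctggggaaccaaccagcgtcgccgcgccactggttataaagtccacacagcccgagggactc

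The first motif was present in these 3 windows and in that of H2-Q7, and in 5.79% of 32544 RefSeq promoters of 300 bases. The second was present for H2-D1, H2-K1 and H2-Q7 and in 1.77% of all promoters, and had no match with these letters in the H2-Q10 window. In H2-D1 the first motif began 151 bases and the second 171 bases before the start, and in H2-K1 91 and 111 bases before it, where RefSeq lists 2 starts for H2-K1. Neither string was found in the windows of B2m, H2-T23, Tap1 and Tapbp. A match is a description of letters, not of a bound site.

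The first comparison asked how class I transcripts differed among blood, bone marrow and spleen of healthy mice. All 8 genes were higher in both blood libraries than in both bone marrow libraries, a pattern that 43.1% of the 7667 genes tested also had. Of the 8, 7 passed the test for higher levels in blood, H2-Q7 being the exception, against 12.0% of genes tested that were called higher and 22.1% called in either direction. Only H2-Q10 passed between spleen and bone marrow, and none passed between spleen and blood. CPM is a share of UMIs, and marrow cells held more UMIs, at a median of 2698.5 and 2133.5 against 809.5 and 826 in blood. H2-D1 had 4911 and 14252 UMIs in 1306 and 3672 blood cells, and 4860 and 12999 UMIs in 1206 and 3426 marrow cells. H2-Q10 had 1220 and 3071 UMIs in the same blood cells, and 385 and 1037 in the same marrow cells. A lower CPM in marrow is thus not always a lower count per cell.

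Markers of class II and dendritic cells moved with these tissues. The 9 genes summed to 1665 and 2171 CPM in blood of runs 1 and 2, 798 and 3812 CPM in spleen and 600 and 702 CPM in marrow, with 5 to 8 of the 9 found per library. Most of the sum in 5 of the 6 libraries was Cst3, a protease inhibitor gene, and the dendritic cell genes Flt3, Xcr1, Siglech and Cd209a had 0 to 12 UMIs each. Cells with a UMI of the class II genes H2-Aa, H2-Ab1, H2-Eb1 or Cd74 were 9.34% and 14.8% of blood neutrophils, 7.14% and 51.7% in spleen and 4.56% and 12.5% in marrow. Without those cells 7 members were again called in blood over marrow (1716 of 7320 genes), with H2-D1 at 1.25 and H2-Q10 at 2.82 on the log2 scale, and 2 in spleen over marrow, where H2-K1 joined H2-Q10.

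Platelet markers (6 genes) were also higher in blood, at 97.8 and 158 CPM, than in marrow (3.06 and 3.51 CPM) and spleen (0 and 2.56 CPM). Without cells holding a platelet marker UMI, 7 members were called in blood over marrow (1730 of 7571 genes), with B2m at 0.96 on the log2 scale. Monocyte or macrophage markers (11 genes) ran the other way, at 640 and 269 CPM in blood, 1157 and 356 CPM in spleen and 1391 and 1020 CPM in marrow, and their part in the members' differences was not tested.

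H2-D1 stood at 3611 and 4094 CPM in blood of runs 1 and 2, at 1936 and 3516 CPM in spleen and at 1144 and 1428 CPM in bone marrow. Blood was above marrow in each run, and the spleen of run 2 lay close to blood while the spleen of run 1 lay nearer to marrow. The fitted log2 difference of blood over marrow was 1.31 ± 0.23 (SE, n = 2 libraries per tissue, edgeR adjusted p = 0.0107). H2-K1, the other classical chain, was captured far less often, at 512 and 355 CPM in blood, 276 and 397 CPM in spleen and 155 and 123 CPM in marrow. Blood and spleen overlapped for H2-K1, and both exceeded marrow. Its difference of blood over marrow was 1.35 ± 0.23 on the log2 scale (edgeR adjusted p = 0.00997).

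B2m, the light chain that every class I heavy chain needs for a stable surface molecule, followed the heavy chains with a smaller difference. It was at 2701 and 2424 CPM in blood, 1991 and 2265 CPM in spleen and 1216 and 955 CPM in marrow, with no overlap among the 3 tissues. The log2 difference of blood over marrow was 0.97 ± 0.22 (edgeR adjusted p = 0.0244), and that of spleen over blood was -0.15 ± 0.22, well within its error.

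H2-Q10 had the widest difference between blood and marrow of the 8 genes. It was at 897 and 882 CPM in blood, 283 and 804 CPM in spleen and 90.7 and 114 CPM in marrow. The 2 blood libraries were nearly equal, while the spleen libraries lay far apart, and marrow was lowest in each run. Blood exceeded marrow by 2.87 ± 0.31 on the log2 scale (edgeR adjusted p = 0.00275) and spleen exceeded marrow by 2.102 ± 0.303 (edgeR adjusted p = 0.0245). Within run 1 the spleen was below blood by a log2 value of -1.66 (95% counting interval -1.796 to -1.532), and within run 2 by -0.13 (-0.22 to -0.05). The read ends of H2-Q10, like those of H2-D1, H2-K1, B2m, Tap1 and Tapbp, shared no 96-base stretch of the last 500 transcript bases with another gene.

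The nonclassical chains were scarcer. H2-T23 encodes Qa-1, which presents a leader peptide to the CD94/NKG2A receptor of natural killer cells. It was at 107 CPM in both blood libraries, 62.5 and 62.4 CPM in spleen and 42.1 and 45.5 CPM in marrow, an order of blood, spleen and marrow with little spread within a tissue. The blood over marrow difference was 0.99 ± 0.24 on the log2 scale (edgeR adjusted p = 0.0256), and spleen over blood was -0.64 ± 0.24 with an unadjusted p of 0.0316 in edgeR and an adjusted p of 0.461. For H2-T23, 10.9% of the 96-base stretches near its 3′ end also occur in Rab33b or Hook2 transcripts, so a part of its counts is less certain.

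H2-Q7, a Qa-2 chain, was near the limit of detection, with 4 to 37 UMIs per library. Its level was 5.15 and 4.60 CPM in blood, 2.60 and 18.9 CPM in spleen and 0.942 and 2.20 CPM in marrow. The single high value was the spleen of run 2, where B cell and class II markers were also highest, and the part of other cell types in that level was not tested. With cells holding a B, T or NK cell marker UMI left out, H2-Q7 was not called in blood over marrow (1.71 ± 1.09, edgeR adjusted p = 0.302), spleen over marrow (2.35 ± 1.06, edgeR adjusted p = 0.308) or spleen over blood (0.64 ± 1.06, edgeR adjusted p = 0.864), as with all cells. Near its 3′ end, 3.64% of 96-base stretches also occur in H2-Q5.

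As a share of UMIs, the loading machinery was lower in marrow as well. Tap1, a subunit of the peptide transporter, was at 65.4 and 47.4 CPM in blood, 39.4 and 51.6 CPM in spleen and 30.6 and 19.4 CPM in marrow. Blood and spleen overlapped for Tap1, and marrow lay below both. Its blood over marrow difference was 0.91 ± 0.24 (log2, edgeR adjusted p = 0.0356), the smallest of the 7 called. Tap1 was not called by DESeq2 (0.88, DESeq2 adjusted p = 0.155), when cells outside the quality limits were left out, or with at least 10% of UMIs from S100a8 plus S100a9, and the count was then 6. Tapbp, for tapasin, was at 168 and 169 CPM in blood, 83.7 and 152 CPM in spleen and 62.9 and 60.4 CPM in marrow, with a blood over marrow difference of 1.17 ± 0.21 (edgeR adjusted p = 0.0117). Tapbp in spleen was close to marrow in run 1 and close to blood in run 2. With all UMIs of a cell used, Tap1 was found in 6.05% and 4.36% of blood cells and 9.70% and 4.96% of marrow cells. Tapbp was found in 15.5% and 15.0% of blood cells and 18.6% and 14.2% of marrow cells.

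**Figure D1:**
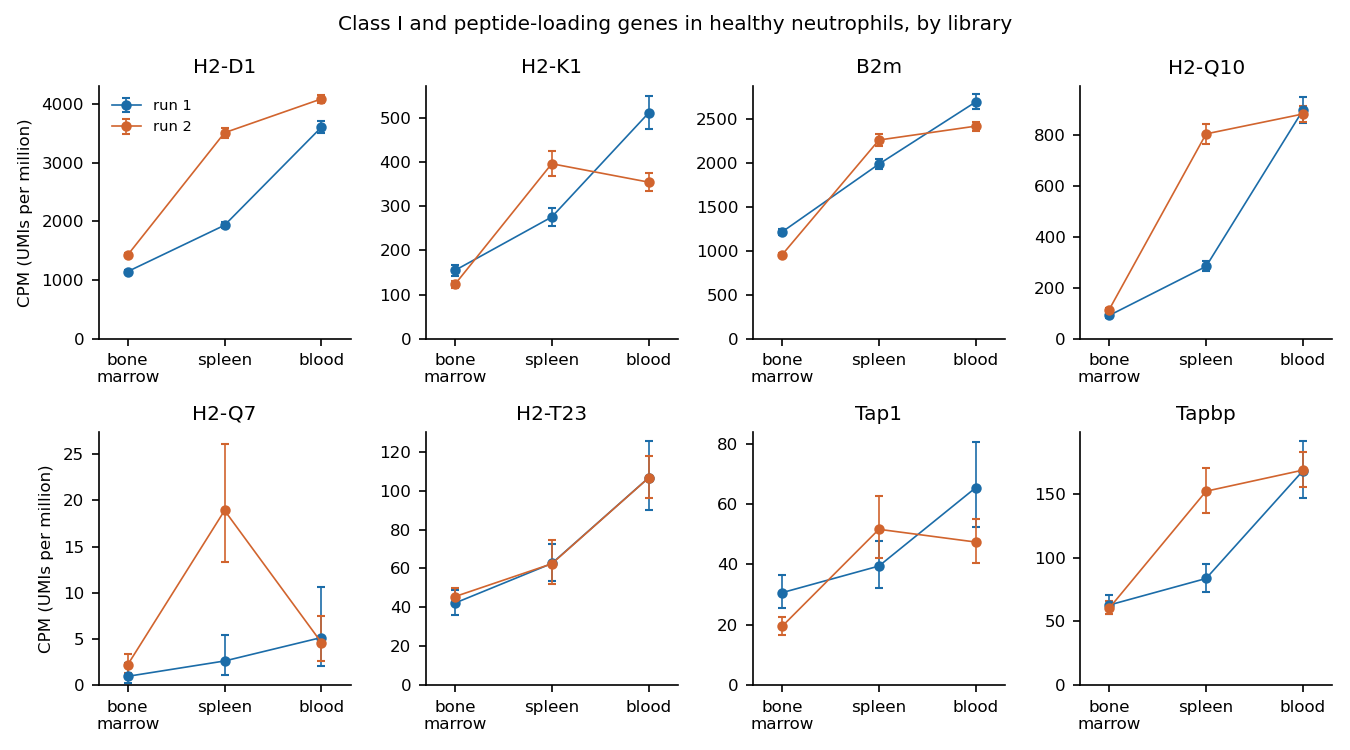
Level of each gene in CPM (linear axes from 0) in bone marrow, spleen and blood, with points for the libraries of run 1 and run 2, lines joining the tissues of 1 run and bars for the exact 95% Poisson interval, which covers counting error only. Marrow is lowest for every gene in both runs, and the spleen of run 2 lies nearer to blood than the spleen of run 1 for H2-D1, H2-Q10 and Tapbp.

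Between spleen and bone marrow, all 8 genes were higher in both spleen libraries (25.1% of genes tested had that pattern), while only H2-Q10 was called, against 2.23% of genes called higher and 2.75% in either direction. DESeq2 called 4 members here, H2-D1, H2-K1 and B2m beside H2-Q10 (266 of 7667 genes), and the fit with no low-count filter called 2 (440 of 9105 genes). The other log2 differences ran from 0.36 ± 0.24 for H2-T23 to 1.11 ± 0.23 for H2-K1 (edgeR adjusted p = 0.0589) and 2.26 ± 0.87 for H2-Q7 (edgeR adjusted p = 0.255). Spleen was below blood without overlap for 5 genes, against 17.7% of genes tested, and no member was called (0.0522% of genes tested were), with 2 members at an unadjusted p under 0.05 in edgeR and 0 members called by DESeq2. The median log2 difference of blood over marrow was 1.24 over the 8 genes and -0.03 over all genes tested.

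The count of 7 genes rested on both blood libraries and on comparing tissues within a run. Without the blood library of run 1 or run 2 no member passed, where 58 of 8299 and 0 of 7958 genes did in edgeR (1619 and 2021 genes at an unadjusted p under 0.05). Without the marrow library of run 1 or run 2 there were 5 and 4 (1617 of 7834 and 1007 of 7975 genes), and without run as a block 1 passed (201 of 7667 genes). All 8 differences stayed above 0 in each of these fits. Where a library was left out, its tissue kept 1 library, and the spread came from the other tissues. Without a scaling factor for composition (TMM), 999 genes were called higher and 487 lower in blood, in place of 919 and 773, and the median of all genes moved from -0.03 to 0.25, with the same count of 7 members.

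Neutrophils differ in maturity between these tissues, so levels were also compared within libraries between cells rich and poor in granule transcripts. Granule proteins such as lactoferrin and cathelicidin are transcribed while neutrophils mature in the marrow and little afterwards. Cells with at least 5% of UMIs from 8 granule genes were called granule-high and those under 1% granule-low. Granule-high cells made up 55.4% and 38.8% of marrow neutrophils, 41.4% and 3.03% in spleen and 10.0% and 0.735% in blood in runs 1 and 2. Between 39 and 1491 cells of a library lay between the limits and entered neither class.

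As a share of UMIs, all 7 genes tested were lower in granule-high cells, in 6 of 6 libraries each, against 25.8% of 4764 genes called lower and 47.5% called in either direction. Granule-high cells held more UMIs, with library medians of 2309 to 3946 against 765.5 to 1596 in granule-low cells. In run 1 marrow, B2m had 3714 UMIs in 668 granule-high cells and 638 in 193 granule-low cells. H2-Q10 had 67 and 191 UMIs in these cells. A lower share was thus not always a lower count per cell. H2-Q10 had the widest difference, at 25.0 to 67.3 CPM in granule-high cells and 454 to 1242 CPM in granule-low cells, with no overlap between the classes and a fitted log2 difference of -4.10 ± 0.15. In red cell barcodes of blood, which should hold little class I RNA, H2-Q10 stood at 50.4 CPM in run 1 (34 barcodes) and 41.1 CPM in run 2 (723 barcodes) (95% counting intervals 18.5 to 110 and 32.9 to 50.6 CPM). Granule-high cells of the same libraries were at 67.3 and 44.1 CPM, of which the first lies inside the interval of run 1 and the second inside that of run 2. Barcodes of this kind were not counted for marrow and spleen.

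The classical heavy chain H2-D1 was at 723 to 1166 CPM in granule-high and 3159 to 5148 CPM in granule-low cells, again without overlap (-1.84 ± 0.11 on the log2 scale). B2m had the narrowest difference (-0.57), at 1034 to 1844 CPM against 1354 to 3619 CPM, with ranges that overlapped across libraries although each library had the lower value in its granule-high cells. The differences of H2-K1, Tapbp, H2-T23 and Tap1 were -1.07, -0.85, -1.29 and -1.42. For Tap1, no UMI was found in the 27 granule-high cells of run 2 blood. H2-Q7 did not pass the filter on low counts.

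With granule-low cells alone, the differences from marrow were smaller for each of the 7 genes tested. H2-D1 was then at 4758 and 4234 CPM in blood, 5125 and 3946 CPM in spleen and 3140 and 3199 CPM in marrow, and its blood over marrow difference of 0.28 ± 0.22 was not called. H2-Q10 was at 1239 and 923 CPM in blood, 1163 and 934 CPM in spleen and 508 and 451 CPM in marrow. It was the only member called, higher in blood by 0.94 ± 0.22 (edgeR adjusted p = 0.0287) and in spleen by 0.90 ± 0.23 (edgeR adjusted p = 0.0422), where 7.71% of 5320 genes were called between blood and marrow and 273 of the 5320 between spleen and marrow. B2m and H2-K1 had differences of 0.73 ± 0.22 and 0.67 ± 0.22 (edgeR adjusted p = 0.0664 and 0.0894), and Tap1 one of -0.06 ± 0.25.

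**Figure D2:**
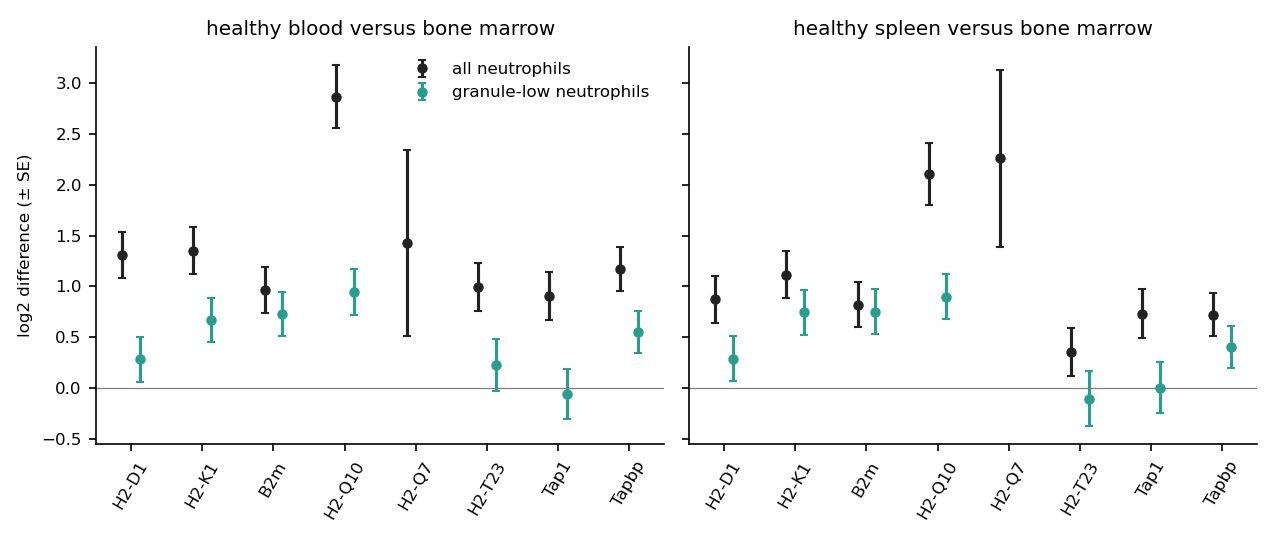
Fitted log2 difference from bone marrow (± SE) of healthy blood (left) and spleen (right) for each gene, with all neutrophils in black and granule-low neutrophils alone in green. H2-Q10 falls from 2.87 to 0.94 in blood, and Tap1 from 0.91 to -0.06; H2-Q7 was not tested in granule-low cells.

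A second division of the cells used 18 interferon-induced genes, none of them among the 8. Cells with at least 3 UMIs and 0.5% of their UMIs from this list were called interferon-high. They made up 12.8% and 8.12% of blood neutrophils in runs 1 and 2, 9.96% and 8.51% in spleen and 1.24% and 1.34% in marrow. The 15 such cells of run 1 marrow were too few to enter the test, leaving 5 libraries.

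Of the 7 genes tested, 4 passed for higher levels in interferon-high cells, against 2.87% of 4249 genes called higher and 6.31% called in either direction. Tap1 differed most. It was at 113 to 181 CPM in interferon-high cells and 18.7 to 52.5 CPM in the other cells of the same libraries, without overlap, and higher in 5 of 5 libraries (1.61 ± 0.21 on the log2 scale, edgeR adjusted p = 1.71e-05). H2-T23 was at 102 to 267 CPM against 43.7 to 100 CPM, also without overlap (1.11 ± 0.21, edgeR adjusted p = 0.00154). Tap1, a subunit of the peptide transporter, and the Qa-1 chain therefore had the widest differences of the genes tested, ahead of the abundant classical chains.

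H2-D1 and H2-Q10 differed less, by 0.64 ± 0.16 and 0.70 ± 0.20 (edgeR adjusted p = 0.0146 and 0.0394), and H2-K1, B2m and Tapbp had differences of 0.52, 0.46 and 0.47 that were not called (edgeR adjusted p = 0.0519, 0.0562 and 0.176). Among granule-low cells alone, Tap1 had a difference of 1.30 (edgeR adjusted p = 7.96e-06) and H2-T23 one of 0.82 (edgeR adjusted p = 0.000695), B2m and H2-D1 were called with 0.29 and 0.23, and H2-Q10 stood at 0.06 (edgeR adjusted p = 0.900). That fit called 4 of 7 members and 146 of 2867 genes. With a limit of 1% in place of 3% for S100a8 plus S100a9, 6 members passed (291 of 4448 genes), H2-K1 and B2m being added. With interferon limits of 5 UMIs and 1%, 1 member passed (185 of 4184 genes), and without the marrow library of run 2 there were 2 (145 of 4336 genes).

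**Figure D3:**
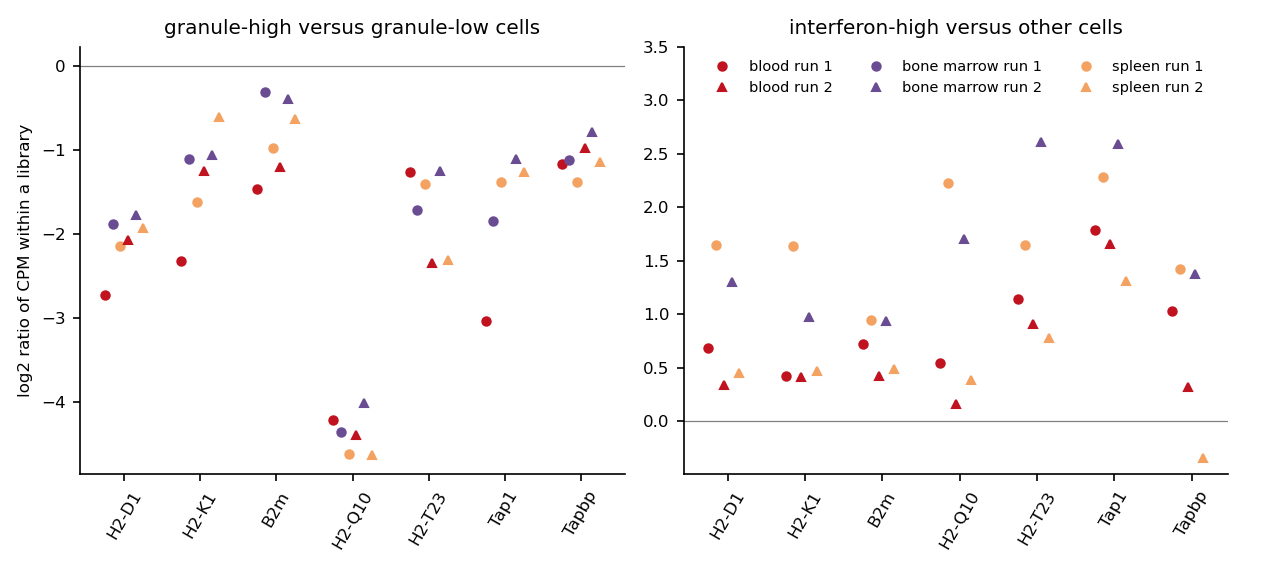
Log2 ratio of CPM between cell classes within each healthy library, for granule-high over granule-low cells (left) and interferon-high over other cells (right), with colour for tissue and circles or triangles for run 1 or run 2. Every granule ratio is below 0, with H2-Q10 between -4.62 and -4.00, and every interferon ratio drawn is above 0 except that of Tapbp in run 2 spleen at -0.35; H2-Q7 and ratios with a count of 0 are not drawn, and run 1 marrow, with 15 interferon-high cells, is not on the right.

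The balance among class I chains was then compared as ratios of UMIs. Such a ratio depends on how well each gene's 3′ end is captured, so it is read between cell groups and not as a protein ratio. The H2-D1 to H2-K1 ratio was 7.01 to 11.6 in neutrophils of the 6 healthy libraries. It was 1.86 to 4.83 in the other cells of these libraries, those with less than 3% of UMIs from S100a8 plus S100a9. The ranges did not overlap. In run 2 blood, where 723 of 981 such other cells were red cell barcodes, their ratio was highest. The other cells may include neutrophils low in S100a8 and S100a9. In the inflammation library, 80.2% of granulocyte-annotated cells of healthy blood and 76.6% of those of lung reached 3%. The H2-Q7 to H2-K1 ratio lay in the other direction, at 0.00609 to 0.0476 in neutrophils and 0.0667 to 0.158 in the other cells.

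Over all neutrophils of a healthy library, H2-Q10 relative to H2-D1 separated marrow from the periphery. The ratio was 0.0792 and 0.0798 in marrow neutrophils, 0.146 and 0.229 in spleen and 0.248 and 0.215 in blood. Marrow was thus nearly the same in both runs and below every other healthy library, and spleen and blood overlapped. The ratio also differed between granule classes within marrow. Granule-high marrow cells of runs 1 and 2 had 67 and 132 H2-Q10 UMIs beside 2296 and 4385 of H2-D1. Granule-low marrow cells had 191 and 398 beside 1181 and 2821. In the other cells, under 3% of UMIs from S100a8 plus S100a9, the ratio was 0.00932 to 0.170. H2-Q10 in the other cells of spleen was 206 and 77.5 CPM, below the 283 and 804 CPM of spleen neutrophils, while H2-Q7 there was 233 and 159 CPM, above the 2.60 and 18.9 CPM of neutrophils.

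**Figure D4:**
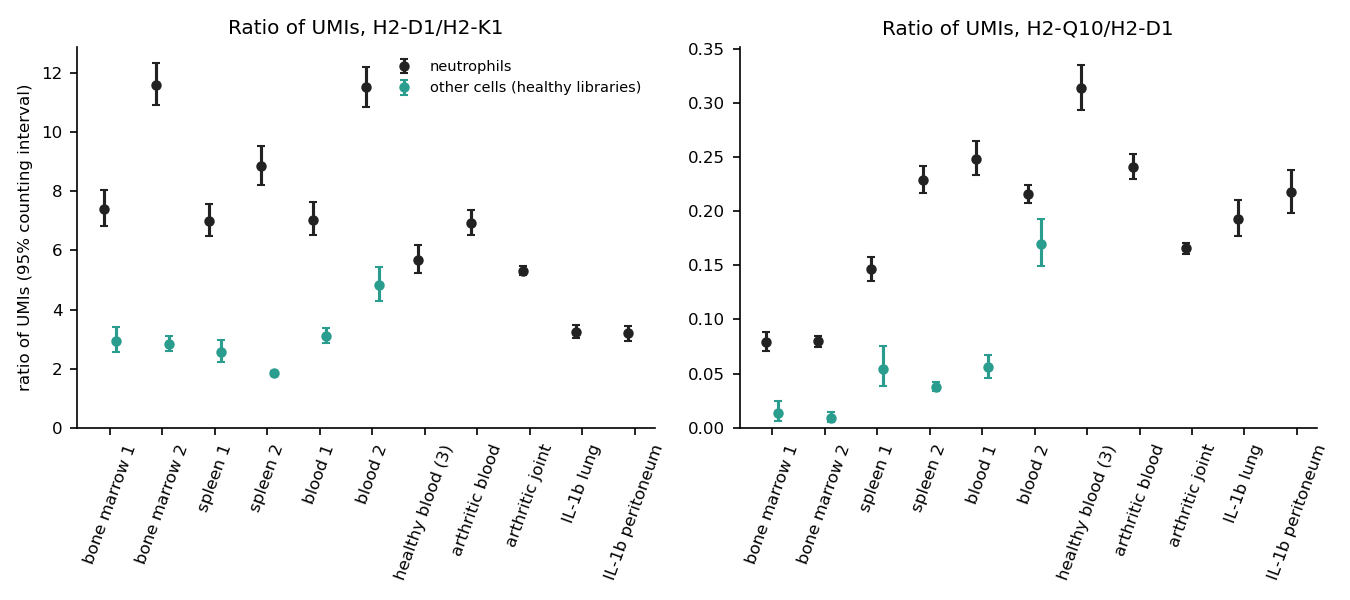
Ratios of UMIs of H2-D1 to H2-K1 (left) and of H2-Q10 to H2-D1 (right) with 95% counting intervals, on linear axes, by healthy library and inflammation condition, for neutrophils (black) and the other cells of the healthy libraries (green). Other cells are those under 3% of UMIs from S100a8 plus S100a9. The inflammation library used another chemistry, so its conditions are read against its own healthy blood. Among them the H2-D1 to H2-K1 ratio is lowest after IL-1β, at 3.25 in lung and 3.19 in peritoneum, against 5.69 in healthy blood. Among neutrophils of the healthy libraries, the H2-Q10 to H2-D1 ratio is lowest in marrow.

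The inflammation library asked how the same genes stood at inflamed sites. Each condition was 1 pool of mice, so there was no test between conditions, and the intervals given cover counting error only. Levels in this library were set against its own healthy blood and not against runs 1 and 2. B cell markers summed to 210 CPM in healthy blood, 125 in arthritic blood, 51.5 in joint, 23.5 in lung and 28.6 in peritoneum. Class II and dendritic markers were at 1405, 890, 1003, 519 and 847 CPM in that order. Monocyte or macrophage markers were at 283, 336, 301, 296 and 389 CPM. Epithelial and endothelial markers were at 13.3, 10.4, 8.06, 78.0 and 8.49 CPM. Their part in the members' differences was not tested. The hashtag antibodies that assigned cells to conditions bind CD45 and class I molecules, so the assignment itself used surface class I.

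Relative to healthy blood, none of the 7 members with a mean of at least 20 CPM was past 2-fold in arthritic blood or in the arthritic joint, where 0.591% and 9.96% of genes were 2-fold or more higher and 5.37% and 20.1% lower. In the IL-1β lung 3 were past 2-fold lower and in the IL-1β peritoneum 1, against 45.0% and 46.2% of all genes. The median gene shifted by -0.36, -0.42, -0.86 and -0.90 on the log2 scale in arthritic blood, joint, lung and peritoneum, and member values are read against these. With the 20 most abundant genes left out of the total, the medians were -0.15, -0.33, -0.73 and -0.83, and 1 value in place of 4 was past 2-fold.

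H2-D1 lay close to healthy blood in arthritis and below it after IL-1β. It was at 3280 CPM in healthy blood, 3188 in arthritic blood, 3140 in joint, 2490 in lung and 2812 in peritoneum, all above the shift of the median gene. H2-K1 was at 577, 460, 591, 767 and 882 CPM in the same order. It was the only member whose interval lay above 0 at both IL-1β sites, with 0.41 (0.27 to 0.55) in lung and 0.61 (0.46 to 0.76) in peritoneum on the log2 scale, which is 1.27 and 1.51 above the median gene. The H2-D1 to H2-K1 ratio was 5.69 in healthy blood, 6.925 in arthritic blood, 5.31 in joint, 3.25 in lung and 3.19 in peritoneum, so the IL-1β sites had the lowest values.

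B2m was at 1811, 1425, 1656, 1399 and 2511 CPM in healthy blood, arthritic blood, joint, lung and peritoneum. Peritoneal cells alone were above healthy blood (0.47, 0.39 to 0.56), and the 2 sites given the same dose of IL-1β differed, lung being lower than peritoneum by a log2 value of -0.84 (-0.93 to -0.76). The transporter and tapasin differed between them in the same direction. Tap1 was at 37.1 CPM in lung and 87.0 CPM in peritoneum (-1.23, -1.77 to -0.70), and Tapbp at 173 and 262 CPM (-0.60, -0.87 to -0.34). H2-K1 and H2-D1 differed by only -0.20 and -0.18.

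H2-Q10 was lower in each of the 4 conditions than in healthy blood. It was at 1029 CPM in healthy blood, 768 in arthritic blood, 520 in joint, 481 in lung and 612 in peritoneum. The log2 ratios were -0.42, -0.99, -1.10 and -0.75, and after subtraction of the median gene -0.06, -0.57, -0.24 and 0.15. The joint stood furthest below the shift of the median gene. Joint cells were also below arthritic blood, by -0.56 (-0.64 to -0.49).

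H2-T23 was at 314, 334, 266, 120 and 151 CPM in the same order of conditions. It was past 2-fold lower in both IL-1β sites, at -1.38 (-1.66 to -1.11) in lung and -1.06 (-1.35 to -0.77) in peritoneum, and those values were -0.52 and -0.16 relative to the median gene. Tap1 was at 84.5 CPM in healthy blood, 76.1 in arthritic blood and 88.7 in joint, and lung was the only condition where its interval lay below 0 (-1.19, -1.72 to -0.68). Tapbp was at 237, 171, 225, 173 and 262 CPM. H2-Q7 rested on 8 to 42 UMIs per condition, and each of its intervals included 0.

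**Figure D5:**
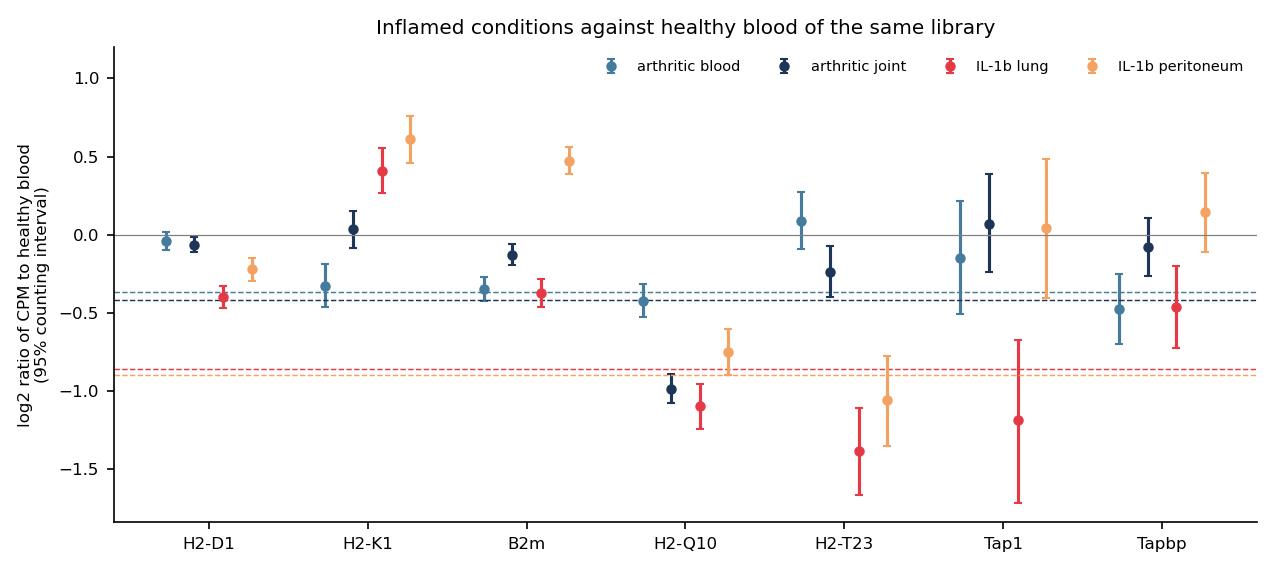
Log2 ratio of CPM in each inflamed condition to healthy blood of the same library, with exact 95% counting intervals, for the 7 genes with a mean of at least 20 CPM; dashed lines in the same colours mark the median of all genes. H2-K1 lies above 0 in lung and peritoneum, B2m in peritoneum, and H2-T23 lies below the dashed lines of both IL-1β sites.

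Interferon-high cells made up 4.32% of healthy blood neutrophils, 4.42% in arthritic blood, 18.2% in joint, 6.05% in lung and 6.85% in peritoneum of this library. Of the members above 20 CPM, Tap1 and H2-T23 again had the widest differences between them and the other cells of a condition. In the joint, where 520 cells were interferon-high, Tap1 was at 286 CPM in these and 48.3 CPM in the other cells. H2-T23 was at 663 and 185 CPM and B2m at 2932 and 1400 CPM. H2-D1 differed less in the joint (4027 and 2971 CPM), and H2-Q10 hardly at all (539 and 518 CPM).

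Over the 5 conditions the log2 ratio of interferon-high to other cells ran from 1.60 to 2.84 for Tap1 and from 0.91 to 1.99 for H2-T23. B2m, H2-K1 and Tapbp were also above 0 in 5 of 5 conditions, at 0.38 to 1.07, 0.08 to 1.01 and 0.27 to 1.16. H2-D1 was above 0 in 4 of 5 (-0.10 to 0.44) and H2-Q10 in 2 of 5 (-0.53 to 0.32). The smallest of these classes held 20 cells, so only the joint gives narrow intervals.

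Other genes of the pathway were counted from lists. Their log2 values at inflamed sites are relative to healthy blood without subtraction of the median gene, which lay at -0.42 in joint, -0.86 in lung and -0.90 in peritoneum. Among 21 other class I and class I-like chains, 4 passed the filter and 2 were called higher in blood than in marrow, against 12.0% of all genes. They were H2-T22, a ligand of some γδ T cell receptors, at 51.5 and 55.2 CPM in blood against 24.02 and 19.66 CPM in marrow (1.02 ± 0.23, edgeR adjusted p = 0.0208), and H2-Q4 (1.25 ± 0.32, edgeR adjusted p = 0.0321). Neither was called by DESeq2, and H2-Q4 was not called without cells holding a class II UMI or a B, T or NK cell marker. Both H2-T22 and H2-Q4 were also called higher in interferon-high cells, by 1.37 and 1.54. Of 8 other peptide-loading genes tested, which include the second transporter subunit Tap2 (0.51 ± 0.22 in blood over marrow, edgeR adjusted p = 0.144), none was called in any of the 3 tissue comparisons, against 22.1% of all genes called in either direction between blood and marrow, 2.75% between spleen and marrow and 0.0522% between spleen and blood. Tap2 was also close to 0 in interferon-high cells (0.11 ± 0.22), where its partner Tap1 was at 1.61.

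None of the 6 immunoproteasome genes, which encode the catalytic subunits and activators that cut peptides for class I, was called between tissues, against the same shares. Psmb8 and Psmb9 were called higher in interferon-high cells, by 1.21 ± 0.15 and 0.98 ± 0.15 (edgeR adjusted p = 5.82e-06 and 0.000134). In the IL-1β lung, Psmb8 was lower than in healthy blood by -1.90 and Psmb9 by -2.47, and in peritoneum by -1.36 and -1.56, while the activator subunit Psme2 was higher in peritoneum by 1.61. Tap2 was lower by -1.37 and -1.20 at these sites, where 45.0% and 46.2% of all genes were 2-fold or more lower. Hspa5, an endoplasmic reticulum chaperone, was higher by 1.10 and 1.51.

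Of 12 tested factors that act on class I transcription, 5 were called higher in blood than in marrow (12.0% of all genes) and none between spleen and marrow (2.75% called in either direction). Irf1 differed most among those named, from 29.7 and 30.8 CPM in marrow to 122 and 119 CPM in blood (1.71 ± 0.27, edgeR adjusted p = 0.00714). Irf2 was also called higher, by 1.10 ± 0.23 (edgeR adjusted p = 0.0162). At the inflamed sites, Irf1 was lower than in healthy blood in joint (-1.57) and lung (-2.10) but not in peritoneum (-0.06). Nfkb1, an NF-κB subunit, was higher in lung by 2.87 and in peritoneum by 3.29.

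Of 9 tested genes of the interferon gamma type, 7 were called higher in blood than in marrow and 4 in spleen than in marrow, and all 7 tested were called higher in interferon-high cells, against 12.0%, 2.23% and 2.87% of all genes. Gbp2, a guanylate-binding protein, was higher in blood by 2.52 ± 0.26 (edgeR adjusted p = 0.00252). Cd274, for PD-L1, was at 48.0 CPM in healthy blood of the inflammation library, 39.0 in arthritic blood, 116 in joint, 256 in lung and 571 in peritoneum. Cd274 was thus highest at the sites where H2-K1 was also highest and Psmb9 lowest.

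The list of receptors on myeloid cells, most of which bind class I molecules, had 4 of 6 tested genes called higher in blood than in marrow, against 12.0% of all genes. Among them were Pira2, an activating receptor (1.13 ± 0.30, edgeR adjusted p = 0.0374), Lilrb4a, an inhibitory receptor (0.73 ± 0.21, edgeR adjusted p = 0.0467), and Cd244, whose known ligand is CD48 and not class I (5.39 ± 0.52, edgeR adjusted p = 0.0022). Pira2 was not called by DESeq2 or without cells holding a B, T or NK cell marker, and Lilrb4a not without those cells or without cells holding a class II UMI. Lilrb4a was at 537 CPM in healthy blood, 677 in arthritic blood, 1272 in joint, 2659 in lung and 2353 in peritoneum. Pirb, the inhibitory receptor for class I, was not called between tissues and was lower in joint than in healthy blood by -1.16.

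Across the 6 healthy libraries and 5 conditions, log2 CPM was centred within each run and compared by Pearson's r. These 11 points share runs, pools and depth, and r is a description. Of 1997 genes with a mean of at least 50 CPM, the 5 with patterns closest to the summed level of H2-D1, H2-K1 and B2m were Trim30a (0.989), Ddx6 (0.983), Irf9 (0.983), Trim30b (0.982) and Jund (0.982). Among the members, Tapbp (0.972) and H2-Q10 (0.963) were closer to that sum than Tap1 (0.849) and H2-T23 (0.640). The 5 genes closest to Tap1 were Rab8a (0.970), Jak1 (0.964), 4833407H14Rik (0.959), Bcl10 (0.949) and Cd82 (0.947).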

How the data were processed

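The deposited tables held UMI counts per gene and cell, made by the authors with Cell Ranger on mm10, with a different release for each run. The authors also deposited cell cycle scores as fraction values, not used here, and a table that assigned the cells of the inflammation library to conditions and reference cell types. The 8 genes and all lists were chosen with earlier results of these data known. Named genes outside the 8 were those of the wider lists called in a tissue comparison or past 2-fold in a condition (at most 4 a list, highest mean CPM), and the 5 most similar patterns to the summed classical genes and to Tap1. Counts were summed per library (n = 2 per tissue) or per library and cell class, leaving class genes out. edgeR 4.0.16 (R 4.3.3) fitted tissue plus run, or class plus library, by quasi-likelihood with TMM factors and filterByExpr, and called genes at a Benjamini-Hochberg adjusted p of 0.05 over all genes tested. Libraries are pools of mice, so p-values measure spread between pools. Per the methods each run used 1 set of mice for its 3 tissues, and same-run libraries deviated together (r = 0.514, 0.465 and 0.570 over 7667 genes), so run was a block. Conditions were compared by CPM with exact 95% Poisson intervals, and ratios with exact binomial ones. Alternatives were DESeq2 1.42.0, no low-count filter, other cell and class limits, no block and leaving out each library. Scripts were tested on simulated data. No doublet caller was run. A filter on cells with extreme gene numbers was an alternative. Protein sequences were not used here.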

Additional observations from a re-analysis of the deposited data

How the results depend on the processing

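H2-Q7 rested on 4 to 37 UMIs per healthy library, and tissue calls on 2 pools per tissue. Without run as a replicate block, the 7 members called between blood and marrow fell to 1 and genes called from 1692 to 201, the 1 member between spleen and marrow to 0 (211 genes to 0), and genes between spleen and blood from 4 to 0. Leaving out 1 library gave 0 to 7, 0 to 4 and 0 to 1 members in these 3 comparisons, with 0 to 2518, 0 to 993 and 0 to 434 genes, 7 to 7 members between granule classes and 2 to 4 members (145 to 319 genes against 268) between interferon classes. Between spleen and marrow, DESeq2 called 4 members (266 genes), and the fit with no low-count filter 2 (440 genes), while leaving out cells outside the quality limits called 108 genes. Between spleen and blood, genes called were 30 with DESeq2, 34 with no filter and 19 with S100a8 plus S100a9 at 10%. Interferon limits of 5 UMIs and 1% left 1 member (185 genes), and leaving the 20 most abundant genes out of the totals left 1 of 4 values past 2-fold in the inflamed conditions.

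These 5 alternatives were chosen after seeing the data. Granule-low cells alone left 1 member and 410 genes between blood and marrow and 7 genes between spleen and blood. There the difference of Tap1 for blood over marrow was -0.059, that of H2-T23 for spleen over marrow was -0.10, and those of H2-D1, H2-K1, B2m and Tap1 for spleen over blood were 0.0067, 0.072, 0.025 and 0.062, each the reverse of all cells. Leaving out cells with a B, T or NK cell marker kept the counts of 7, 1 and 0 members, with 1556, 166 and 2 of 7159 genes called. Omitting the TMM factor also gave 7, 1 and 0 members (1486, 145 and 6 of 7667 genes). Leaving out cells with a platelet marker gave 7, 1 and 0 members (1730, 231 and 0 of 7571 genes). Between spleen and blood, 826 genes then had an unadjusted p under 0.05 in edgeR. Leaving out cells with a class II UMI gave 7, 2 and 0 members (1716, 226 and 5 of 7320 genes). It ended the calls of H2-Q4 and Lilrb4a in blood over marrow. In spleen over blood, leaving out 1 library moved H2-Q7 from -0.29 (without run 2 spleen; -0.27 without run 2 blood) to 1.66, and Tap1 from -0.44 to 0.027 (without run 1 spleen). Of the members' log2 differences under all alternatives, 509 kept direction and side of the threshold, 46 lost and 18 gained the call, and 9 reversed. The cause was not tested.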
